A study of Mus musculus with 12 samples.

Results

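Ganglioside synthesis was followed through 10 glycosyltransferase genes in the cerebellum of mice with and without Npc1, the gene of the cholesterol transporter of late endosomes and lysosomes that is lost in Niemann-Pick disease type C. The genes were B3gnt5, Ugcg, B4galt5, B4galt6, St3gal5, B4galnt1, St8sia1, St8sia5, St3gal2 and B3galt4. The platform annotation assigned 21 of the 22690 probe sets to them alone, and they are 10 of the 12393 genes with such a probe set. B3gnt5 was chosen by its measured values, a much lower level in Npc1-/- cerebellum at postnatal day 49, so its values at that age are a description with no test. The other 9 are the enzymes of the main ganglioside route. Ugcg, B4galt6, St3gal5, B4galnt1, St8sia5, St3gal2 and B3gnt5 were among the 7835 genes bright enough to be tested, and B4galt5, St8sia1 and B3galt4 were below the filter.

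The samples were 12 whole cerebella of BALB/c Npc1 mice, each on 1 Affymetrix array, with 3 individual animals in each of 4 groups. The groups were Npc1-/- at postnatal day 49 (P49), Npc1+/+ at P49, Npc1-/- at P21 and Npc1+/+ at P21. All animals were untreated and on standard chow, the genotype was determined by PCR, and ages follow the time point labels, although the treatment protocol mentions P21 for every mouse. The labels make 11 animals female and 1, Npc1-/- P49 replicate 1, male.

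The probe set of Npc1 itself, the check of the genotype labels, averaged 10.12 ± 0.35 in Npc1-/- and 11.56 ± 0.20 in Npc1+/+ at P49, and 9.34 ± 0.98 in Npc1-/- and 11.29 ± 0.21 in Npc1+/+ at P21 (SD, n = 3 each). These and all levels that follow are log2(intensity + 16) after quantile normalisation, and at each age the 3 null arrays lay below the 3 wild-type arrays. The differences were -1.43 ± 0.37 at P49 and -1.95 ± 0.37 at P21 (SE), with limma adjusted p-values of 0.0591 and 0.101. Without Npc1-/- P21 replicate 1 they were 0.0197 at P49 and 0.0113 at P21, and without Npc1-/- P21 replicate 2 they were 0.000816 and 0.0318. In 15 of 21 alternative settings at P49 and 18 of 21 at P21 the difference still did not pass. It ran from -1.64 to -1.32 at P49, with a limma adjusted p of up to 0.269. At P21 it ran from -2.33 to -1.16, with a limma adjusted p of up to 0.799. Levels of Xist, the RNA of the inactive X chromosome, disagreed with the sex labels. They were 13.01 and 13.36 on Npc1-/- P21 replicates 2 and 3 and 9.28 on Npc1+/+ P21 replicate 2, all labelled female, whereas the array labelled male had 15.63. The other arrays lay between 15.61 and 15.86. Eif2s3y, a gene of the Y chromosome, read 9.25 and 12.67 on Npc1-/- P21 replicates 2 and 3 and 12.72 on Npc1+/+ P21 replicate 2. On the other P21 arrays it read 4.35 to 5.41. It read 7.93 on the array labelled male and 5.19 to 8.91 on the other P49 arrays, which are labelled female. Defining markers of cerebellum were present. Of genes with a probe set, 16 of 17 on the Purkinje cell list and all 11 on the granule cell list were above the filter. The Purkinje cell list also holds Cbln3, a granule cell gene.

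Gangliosides are sialic acid-bearing glycolipids that are abundant in neuronal membranes and are built one sugar at a time in the Golgi. Ugcg puts glucose on ceramide, and B4galt5 or B4galt6 adds galactose to give lactosylceramide, the branch point. St3gal5 sialylates lactosylceramide to GM3, which opens the ganglioside series, while B3gnt5 adds N-acetylglucosamine to the same lactosylceramide and opens the lacto and neolacto series. GM2 and GM3 are known to accumulate in brain that lacks Npc1.

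RefSeq promoter windows (GRCm38.p6, 250 bases before to 50 bases after the gene start) were read for 6 of the 10 genes: B3gnt5, Ugcg, B4galt5, St3gal5, St8sia1 and B3galt4. The search for these genes skipped a chromosome, so a gene not listed that lies on it need not lack a window. For genes not listed that lie elsewhere, no window was found. The windows of the enzymes that take lactosylceramide into either branch are shown because B3gnt5 is the gene that differed and St3gal5 is its counterpart on the same substrate. They lie at chr16:19759984-19760283 (+) for B3gnt5 and chr6:72097358-72097657 (+) for St3gal5, written 5′ to 3′ with capitals at the GC box GGGCGG and the cAMP response element core TGACGT, on either strand.
B3gnt5: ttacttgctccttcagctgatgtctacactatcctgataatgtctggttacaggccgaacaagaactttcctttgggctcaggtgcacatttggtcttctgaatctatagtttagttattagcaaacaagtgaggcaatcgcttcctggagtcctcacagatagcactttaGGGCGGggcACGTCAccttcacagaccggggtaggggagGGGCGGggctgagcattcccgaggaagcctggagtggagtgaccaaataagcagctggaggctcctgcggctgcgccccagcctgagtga
St3gal5: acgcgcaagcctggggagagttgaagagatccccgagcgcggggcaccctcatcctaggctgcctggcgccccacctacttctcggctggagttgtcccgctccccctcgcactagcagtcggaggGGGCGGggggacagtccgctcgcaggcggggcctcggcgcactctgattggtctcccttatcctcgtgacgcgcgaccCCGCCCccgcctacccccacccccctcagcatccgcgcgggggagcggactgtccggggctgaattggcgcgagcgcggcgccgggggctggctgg
The GC content of the B3gnt5 window was 53.33%, close to the median of 52.67% over 32851 windows, and the lowest of the 6. It was 72.67% for St3gal5, 81.33% for Ugcg, 75% for B4galt5, 64.67% for St8sia1 and 59.67% for B3galt4. B3gnt5 held 9 CpG dinucleotides against 33 in St3gal5, and the other 4 windows held 19 to 53. Each of the 6 windows held a GC box, 2 in both sequences shown, and 35.7% of all windows held one. TGACGT was found in B3gnt5 alone of the 6, beside and not overlapping a GC box, and in 7.51% of all windows. CACGTG and TATAAA were found in none of the 6, and in 7.15% and 13.6% of all windows. The motifs were searched on both strands and were chosen after the sequences had been seen, and a match is a description of the letters alone.

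B3gnt5 was low in Npc1-/- cerebellum at P49 and in no other group. Its brighter probe set, 1420994_at, read 11.12, 10.33 and 10.51 in the 3 Npc1-/- animals at P49, against 12.27, 12.18 and 12.30 in Npc1+/+ at P49. At P21 it read 12.26, 12.56 and 12.43 in Npc1-/- and 12.37, 12.15 and 11.89 in Npc1+/+. The 3 null animals at P49 thus lay below all 9 others, with replicate 1, the animal labelled male, the highest of them. In the deposited linear intensities the same animals read 2341.2, 1391.6 and 1503.1, against 4970.9, 4676.9 and 5004.4 in Npc1+/+ at P49. All of these are above the filter intensity of 959.

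The group means of B3gnt5 were 10.66 ± 0.41 in Npc1-/- and 12.25 ± 0.06 in Npc1+/+ at P49, and 12.42 ± 0.15 in Npc1-/- and 12.14 ± 0.24 in Npc1+/+ at P21 (SD, n = 3 each). The P49 difference was -1.60, which is 3.02-fold lower in the null animals. Between ages, P49 minus P21, the difference was -1.76 in null and 0.11 in wild-type cerebellum. Ordered by level, Npc1-/- P21, Npc1+/+ P49 and Npc1+/+ P21 followed each other with overlapping arrays, and Npc1-/- P49 stood apart below them. The spread among the null animals was also the widest of the 4 groups. In whole tissue, fewer cells of a type and less RNA per cell cannot be told apart.

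The P21 genotype difference is the 1 comparison of B3gnt5 that its choice did not use, and it did not pass. It was 0.28 ± 0.19 (SE), with a 95% interval from -0.13 to 0.68 and an adjusted p of 0.592 (limma, Benjamini-Hochberg over 7835 genes). The SE, interval and p-value came from a fit with 1 spread per gene for all groups, so they also drew on the P49 arrays. Those arrays were used in the choice of B3gnt5. Its SD at P49 was 0.41 in Npc1-/- and 0.06 in Npc1+/+, against 0.15 in Npc1-/- and 0.24 in Npc1+/+ at P21. The P21 arrays of both genotypes overlapped, and the dimmer probe set had the opposite sign.

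That dimmer probe set, 1420993_at, was below the filter with a mean of 9.19. It read 8.85, 7.79 and 9.00 in Npc1-/- at P49, against 9.54, 9.35 and 9.38 in Npc1+/+ at P49. Here too the null animals lay below the wild type without overlap, by -0.87. At P21 it read 9.39, 9.31 and 9.11 in Npc1-/- and 9.87, 9.50 and 9.23 in Npc1+/+, a difference of -0.26 with overlap.

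**Figure D1:**
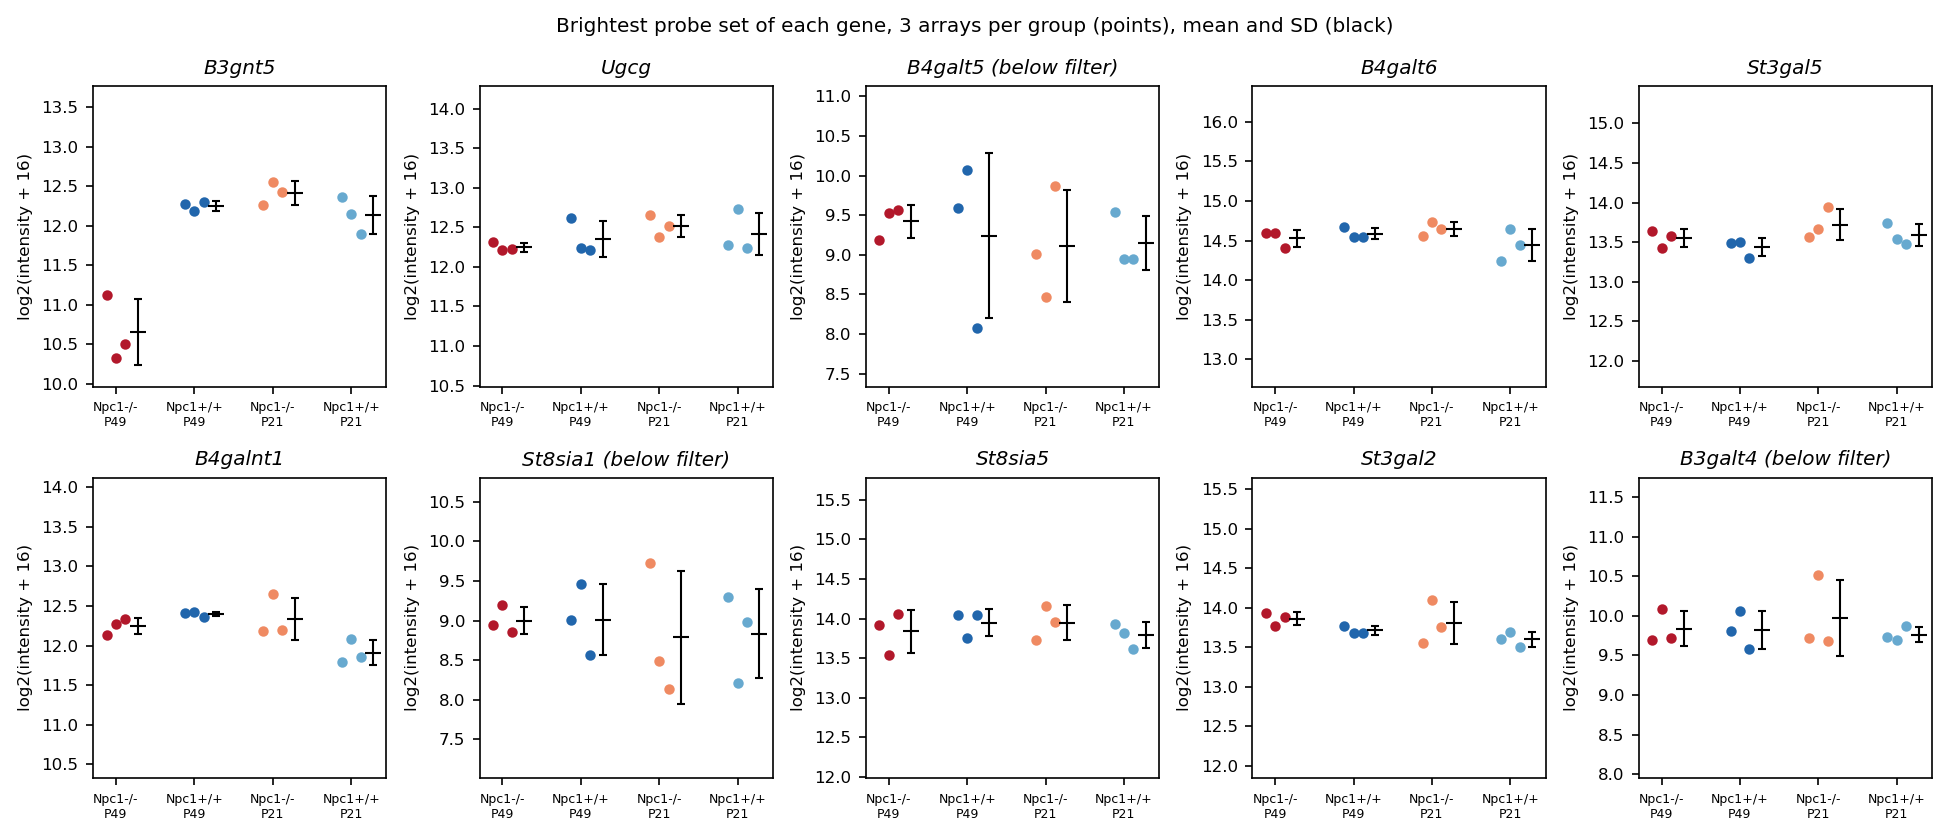
Levels of the 10 genes on each array, as log2(intensity + 16) of the brightest probe set, with groups along the horizontal axis and black marks for mean and SD (n = 3). The panels cover equal spans but start at different levels, and B3gnt5 in Npc1-/- at P49, between 10.33 and 11.12, is the group that stands apart.

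None of the other 6 tested genes passed the threshold for genotype at P49, where 208 of 7835 genes did (2.65%). Their differences ran from -0.15 to 0.15, with 2 positive and 4 negative and a median of -0.08, against -0.019 for all genes tested. For the brightest probe sets, the widest 95% intervals reached -0.46 and 0.41, and a fall larger than 1.37-fold lies outside all of them. Some further probe sets had larger SEs, such as 0.24 for Ugcg 1421268_at and 0.26 for St3gal2 1421892_at, so this bound does not cover them. No unadjusted p was below 0.05, against 11.3% of all genes. The null and wild-type arrays did not overlap for 1 of the 6, B4galnt1, where 23.2% of all genes had no overlap.

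Ugcg, whose product glucosylceramide is the start of the whole route, read 12.31, 12.21 and 12.22 in Npc1-/- and 12.62, 12.24 and 12.21 in Npc1+/+ at P49. Apart from 1 higher wild-type animal, the arrays covered the same range. The difference was -0.11 ± 0.15 (SE, 95% interval -0.44 to 0.22, limma adjusted p = 0.882). Its other probe sets, 1421269_at and 1421268_at, gave 0.08 and -0.02.

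B4galt6, a lactosylceramide synthase with prominent expression in brain, read 14.59, 14.59 and 14.41 in Npc1-/- and 14.67, 14.55 and 14.54 in Npc1+/+ at P49. The groups overlapped, with a difference of -0.06 ± 0.11 (SE, 95% interval -0.29 to 0.18, limma adjusted p = 0.918). Of its 3 further probe sets, 1450913_at had non-overlapping arrays at P49 with a difference of -0.20, but its adjusted p over all probe sets was 0.565. The other two gave -0.03 and 0.04.

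St3gal5, the GM3 synthase that shares its substrate with B3gnt5, read 13.64, 13.42 and 13.58 in Npc1-/- and 13.49, 13.51 and 13.30 in Npc1+/+ at P49. The ranges overlapped. The difference was 0.12 ± 0.12 (SE, 95% interval -0.15 to 0.38, limma adjusted p = 0.831), and the further probe set 1449198_a_at gave -0.13.

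B4galnt1, which makes GM2 and GD2, read 12.13, 12.27 and 12.33 in Npc1-/- and 12.41, 12.42 and 12.36 in Npc1+/+ at P49. All null animals were below all wild-type animals, by a narrow margin. The difference was -0.15 ± 0.14 (SE, 95% interval -0.46 to 0.15, limma adjusted p = 0.806). Its second probe set, 1425363_at, was far below the filter with a mean of 6.82, and gave 0.41 at P49 with overlapping arrays.

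The later sialyltransferases also overlapped between genotypes at P49. St8sia5, which adds further sialic acids to gangliosides, read 13.92, 13.54 and 14.06 in Npc1-/- and 14.05, 13.76 and 14.04 in Npc1+/+. Its difference was -0.11 ± 0.15 (SE, 95% interval -0.44 to 0.22, limma adjusted p = 0.88). St3gal2, which sialylates the outer galactose of complex gangliosides, read 13.93, 13.77 and 13.89 in Npc1-/- and 13.77, 13.68 and 13.68 in Npc1+/+. Its difference was 0.15 ± 0.12 (SE, 95% interval -0.11 to 0.41, limma adjusted p = 0.781), and its probe sets 1421890_at and 1421892_at gave 0.32 and 0.04.

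**Figure D2:**
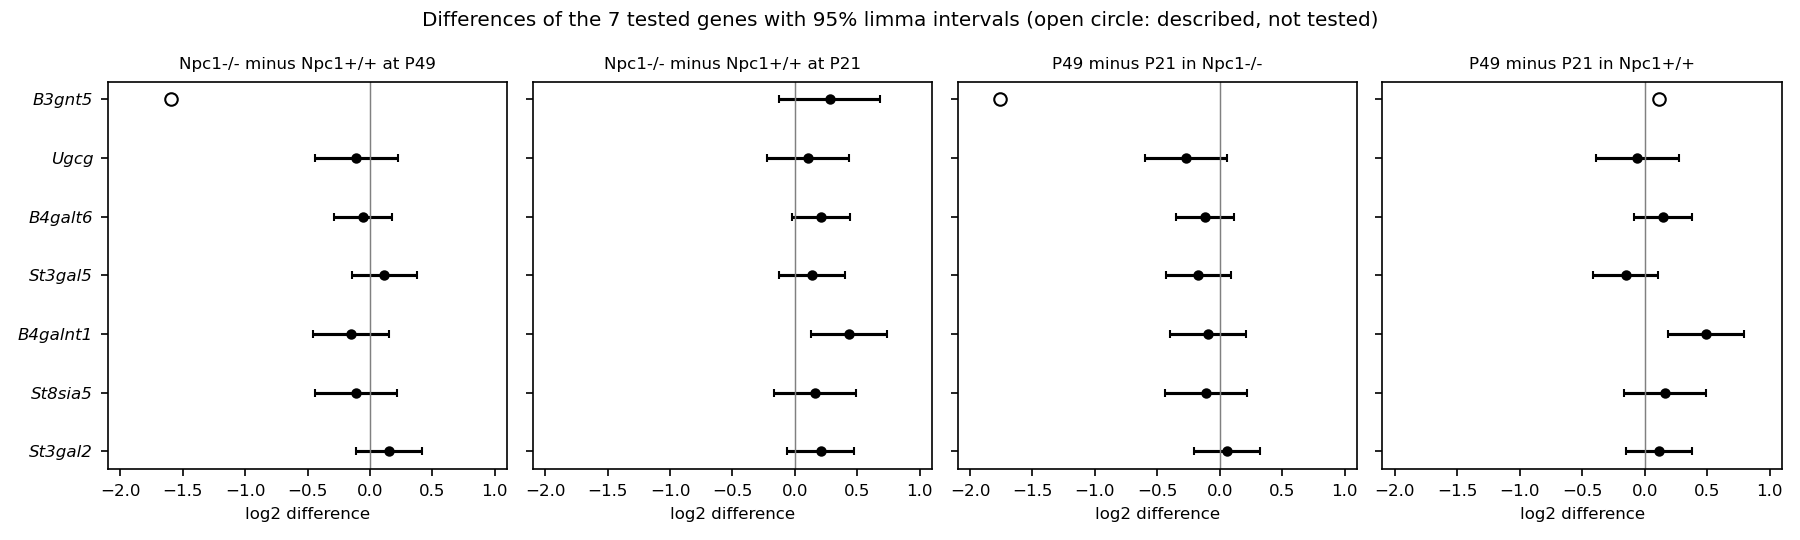
Log2 differences of the 7 tested genes for genotype at P49 and P21 and for age in each genotype, with bars for 95% limma intervals and open circles for B3gnt5 where it was described without a test. The 6 other genes lie between -0.15 and 0.15 for genotype at P49, while B3gnt5 lies at -1.60.

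The 3 genes below the filter overlapped between genotypes at P49. B4galt5, the other lactosylceramide synthase, read 9.19, 9.53 and 9.57 in Npc1-/- and 9.59, 10.07 and 8.07 in Npc1+/+. St8sia1, the GD3 synthase, read 8.94, 9.19 and 8.86 in Npc1-/- and 9.01, 9.46 and 8.56 in Npc1+/+. B3galt4, which adds the outer galactose of GM1, read 9.69, 10.09 and 9.72 in Npc1-/- and 9.81, 10.07 and 9.58 in Npc1+/+. The wild-type spread of B4galt5 alone, ± 1.04 (SD, n = 3), is wider than its difference of 0.18.

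With no filter, so that 12393 genes were tested, their limma adjusted p-values at P49 were 0.954 for B4galt5, 0.998 for St8sia1 and 0.994 for B3galt4. The mean of B3galt4, 9.85, was just under the filter of 9.93. A second, dimmer probe set of St8sia1, 1419694_at, read 8.57, 6.91 and 8.60 in Npc1-/- and 9.80, 9.02 and 8.53 in Npc1+/+ at P49, an overlapping difference of -1.09. Whether these probe sets were above background was not analysed here.

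At P21 none of the other 6 tested genes passed for genotype, as was true of nearly all genes (0.0638% passed). All 6 differences were positive, from 0.10 to 0.43, with a median of 0.18 against -0.0047 for all genes tested. B4galnt1 had the largest: it read 12.18, 12.65 and 12.19 in Npc1-/- and 11.79, 12.09 and 11.85 in Npc1+/+ at P21. The groups did not overlap, which held for 11.8% of all genes. The difference was 0.43 ± 0.14 (SE, 95% interval 0.13 to 0.74) with an unadjusted p of 0.00879 and an adjusted p of 0.387 by limma, and 10.1% of all genes had an unadjusted p below 0.05.

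The other 5 P21 differences were 0.21 ± 0.11 for B4galt6 (95% interval -0.02 to 0.44), 0.21 ± 0.12 for St3gal2, 0.16 ± 0.15 for St8sia5, 0.14 ± 0.12 for St3gal5 and 0.10 ± 0.15 for Ugcg (SE). Their limma adjusted p-values lay between 0.516 and 0.815. The P21 groups hold the 3 arrays with another Xist level. Without those arrays the differences of St3gal5 and St8sia5 at P21 were -0.045 and -0.044, and that of B4galnt1 was 0.36.

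**Figure D3:**
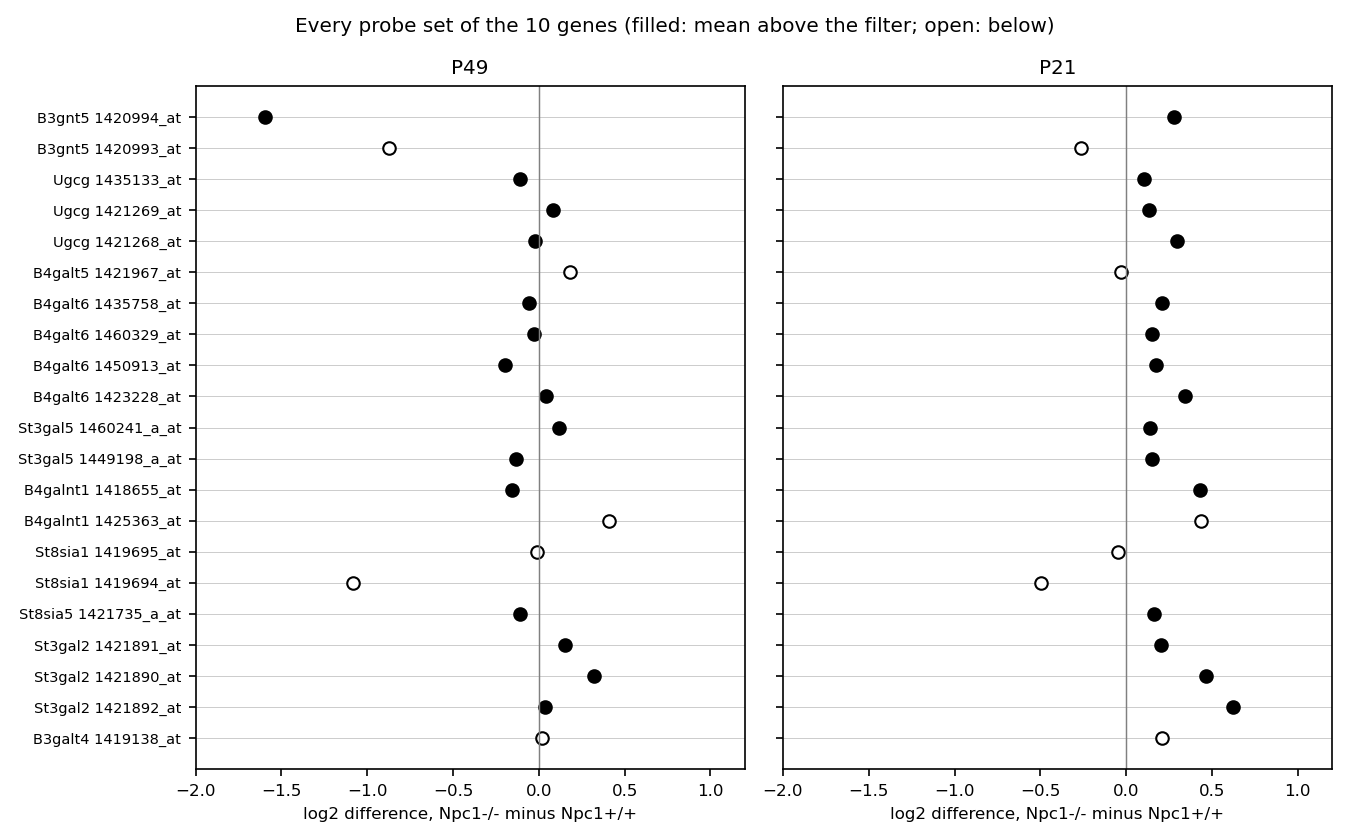
Log2 difference of null minus wild type for all 21 probe sets at P49 and at P21, filled above the filter and open below it. The bright B3gnt5 probe set at -1.60 is the lowest point at P49, and filled points at P21 are all to the right of 0.

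With age, none of the 6 passed in either genotype. Between P49 and P21, 488 of 7835 genes (6.23%) passed in Npc1-/- and 55 (0.702%) in Npc1+/+. On the brightest probe sets, 5 of the 6 differences in Npc1-/- were negative, and Ugcg had the largest, -0.27 ± 0.15 (SE, limma adjusted p = 0.327). Its 3 P49 arrays lay below its 3 P21 arrays, which read 12.66, 12.38 and 12.52, and 22.5% of all genes had no overlap in this comparison. The Ugcg probe sets 1421269_at and 1421268_at gave 0.05 and -0.04, with overlap. For B4galt6, 1450913_at and 1460329_at gave -0.32 and -0.33 without overlap, and 1423228_at gave -0.02. None of these passed over all probe sets. This comparison shares the Npc1-/- P49 arrays with the genotype comparison at that age, so their values are not independent.

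St3gal5 differed between its probe sets with age. In Npc1-/- the probe set 1449198_a_at read 13.08, 13.14 and 13.30 at P49, against 13.68, 13.74 and 13.76 at P21. The ages did not overlap, and in a fit of 13576 probe sets it fell by 0.56 ± 0.12 (SE, limma adjusted p = 0.0188). In Npc1+/+ it read 13.30, 13.40 and 13.21 at P49 and 13.84, 13.40 and 13.49 at P21, a difference of -0.27 with an adjusted p of 0.509 by limma. The brighter probe set, 1460241_a_at, gave -0.17 in Npc1-/- and -0.15 in Npc1+/+. The probe set that passed, 1449198_a_at, was 1 of 14 tested singly for the 6 other tested genes, where 4.57% of all 13576 passed with age in Npc1-/-. Marker genes moved in the same comparison, in which 3.45% of all genes fell and 2.78% rose. On the marker lists 13 of 16 Purkinje cell, 3 of 8 oligodendrocyte and 1 of 11 granule cell genes fell, and all 11 microglia genes rose. Of 12 astrocyte genes 2 rose and 1 fell, and no endothelial gene passed. Their part in the St3gal5 value was not tested.

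B4galnt1 was higher at P49 than at P21 in wild-type cerebellum, without passing the threshold. The Npc1+/+ arrays quoted above did not overlap between ages, as for 21.4% of all genes. The difference was 0.49 ± 0.14 (SE, limma unadjusted p = 0.00393, adjusted p = 0.182, where 9.99% of all genes had an unadjusted p below 0.05), against -0.10 in Npc1-/-. The dim probe set 1425363_at gave -1.09 in Npc1+/+ and -1.11 in Npc1-/-, with overlapping arrays. For the brighter one the adjusted p in Npc1+/+ was 0.0312 without the 3 P21 arrays of another Xist level, with a difference of 0.58, and 0.0434 without Npc1-/- P21 replicate 2.

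No interaction of genotype and age passed among the 6 genes, where 0.549% of all genes did. All 6 were negative, with a median of -0.24 against -0.0018 for all genes tested. B4galnt1 had the largest, -0.59 ± 0.20 (SE, limma unadjusted p = 0.0111, adjusted p = 0.39), and 8.44% of all genes had an unadjusted p below 0.05. The P49 minus P21 difference of genotype effects was -1.87 for B3gnt5, given as a description.

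The wider glycolipid pathway was read from 81 other genes in 7 lists, of which 50 were tested. At P49 2 of the 50 rose and none fell (4%), where 2.65% of all genes passed and 1.52% rose, and at P21 none passed. Hexa, the alpha subunit of the hexosaminidase that breaks down GM2, rose at P49. It read 13.74, 13.96 and 14.12 in Npc1-/- and 12.72, 12.60 and 12.73 in Npc1+/+ at P49, with no overlap. The rise was 1.26 ± 0.14 (SE, limma adjusted p = 0.000154), against a difference of 0.07 at P21. Its interaction was 1.18 ± 0.20 (adjusted p = 0.0147), and this call was lost when any 1 of 5 arrays was left out.

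Those 5 arrays were Npc1-/- P49 replicates 2 and 3, Npc1+/+ P49 replicates 1 and 2 and Npc1+/+ P21 replicate 3, with adjusted p-values from 0.0511 to 0.0727. The breakdown list had 11 tested genes with a P49 median of 0.25. Hexa is the member of it that passed.

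Sgms1, which makes sphingomyelin from ceramide and so draws on the same lipid as Ugcg, was the other call at P49. It read 12.80, 12.89 and 12.79 in Npc1-/- and 12.23, 11.75 and 12.30 in Npc1+/+, a rise of 0.73 ± 0.16 (SE, limma adjusted p = 0.022). The call rests on 1 probe set, since 1426575_at gave -0.13 and the average of both gave 0.30 (adjusted p = 0.415). It was also lost without Npc1+/+ P49 replicate 2 (adjusted p = 0.111) and without any 1 of the Npc1-/- P49 arrays (0.0602 to 0.123).

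The genes that act after B3gnt5 on the lacto and neolacto chain did not pass. Of 13 on that list 6 were tested, with a P49 median of -0.45, against -0.019 for all genes. They were -0.50 for B4galt2, -0.43 for B4galt4, 0.02 for B4galt3 and 0.30 for B4galt1, which are galactosyltransferases, -0.48 for B3gnt2, which extends N-acetyllactosamine chains, and -0.53 for Fut9, a fucosyltransferase. The lowest limma adjusted p among them was 0.385, for B4galt2, whose second probe set, 1448941_at, was below the filter and gave 0.84. The 9 tested other sialyltransferases had a median of -0.15, and the 11 genes of sugar donor synthesis a median of 0.08, with none called in either list.

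With age, 3 pathway genes rose and 3 fell in Npc1-/- (12% of the 50, where 2.78% of all genes rose and 3.45% fell). Hexa rose by 1.17 ± 0.14, Ugp2, which makes UDP-glucose, by 0.37 ± 0.09 and Psap, the precursor of saposins, by 0.28 ± 0.08 (SE, limma adjusted p = 0.00034, 0.0359 and 0.0426). Ugt8a, the galactosylceramide synthase of myelin, fell by 1.24 ± 0.20 in Npc1-/- and by 1.43 ± 0.20 in Npc1+/+ (limma adjusted p = 0.00274 and 0.00479). Its dimmer probe set, 1419064_a_at, gave -0.73 in Npc1-/- and -1.34 in Npc1+/+. Over all probe sets it passed in Npc1+/+ alone (limma adjusted p = 0.0845 in Npc1-/- and 0.0191 in Npc1+/+). Gal3st1, which sulfates galactosylceramide, fell by 0.92 ± 0.18 and B4galt2 by 0.86 ± 0.22 in Npc1-/- (limma adjusted p = 0.00775 and 0.0325). The second, dimmer probe set of B4galt2, 1448941_at, had the opposite sign with 0.42, and the average of both was -0.22 (adjusted p = 0.73). The calls of Psap, Ugp2 and B4galt2 were lost without any 1 of 10, 7 and 3 arrays. The 10 were all arrays but Npc1+/+ P21 replicates 1 and 2, the 7 were all P49 arrays and Npc1-/- P21 replicate 3, and the 3 were Npc1-/- P49 replicates 2 and 3 and Npc1-/- P21 replicate 2. With values as deposited Psap gave 0.17 (adjusted p = 0.324) and B4galt2 -0.71 (0.0722). With only the 6 arrays of the comparison none of Psap, Ugp2, B4galt2 and Gal3st1 passed (0.0762 to 0.15), and without the 3 arrays of another Xist level Psap, Ugp2 and B4galt2 did not (0.142 to 0.176). Psap and B4galt2 were also lost with no filter (0.104 and 0.0538), Ugp2 with averaged probe sets (0.102), and Psap with the filter at the 20th percentile (0.0517) and with the replicate block (0.0586).

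In Npc1+/+ Ugt8a was the single pathway gene that passed (2%, where 0.702% of all genes did). Ugt8a is also on the oligodendrocyte list, of which 3 of 8 tested genes fell with age in Npc1-/- (Cldn11, Mog and Ugt8a), where 3.45% of all genes fell. In Npc1+/+ 5 of 8 fell (these and Cnp and Mal), where 0.702% of all genes passed in either direction. The summed intensity of the 8 genes, in units of 1000, was 385 to 388 at P49 and 389 to 498 at P21 in Npc1-/-, and 393 to 417 at P49 and 515 to 620 at P21 in Npc1+/+. Their part in the Ugt8a and Gal3st1 results was not tested.

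Cell type markers moved in the comparison in which B3gnt5 was low. Of 16 tested genes on the Purkinje cell list 12 fell at P49 (1.14% of all genes fell), with a median of -0.87. Cbln3, the granule cell gene on that list, gave -0.013 and did not pass. The summed intensity of the 17 genes on the list, in units of 1000, was 771, 586 and 641 in Npc1-/- at P49, against 1031, 1059 and 1033 in Npc1+/+ at P49. At P21 it lay between 913 and 1025 in Npc1-/- and between 865 and 1015 in Npc1+/+.

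The 11 tested microglia genes all rose at P49 (1.52% of all genes rose), with a median of 3.06. Their summed intensity over 14 genes was 163 to 207 in Npc1-/- and 30.9 to 32.9 in the same unit in Npc1+/+ at P49. None of the 11 granule cell, 8 oligodendrocyte or 8 endothelial genes passed at P49, and 2 of 12 astrocyte genes rose. The part of these cell types in the level of B3gnt5 was not tested.

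The genes with the profile nearest to B3gnt5 were found by the root mean square difference of gene-centred log2 values over the 12 arrays, among 7834 genes. They were Col18a1, a collagen, at 0.21, Itpka, an inositol trisphosphate kinase, at 0.217, Slc5a1, a glucose transporter, at 0.246, Smpx at 0.291 and Eps8l2 at 0.293. Itpka is on the Purkinje list. Their P49 differences were -1.28 for Col18a1, -1.60 for Itpka, -1.29 for Slc5a1, -1.45 for Smpx and -1.03 for Eps8l2, and their P21 differences lay between -0.19 and 0.13. These differences follow from picking the genes for likeness to B3gnt5 on the same arrays, and are a description. Ranked the same way, the nearest of the other ganglioside genes was Ugcg at 0.671, in place 1195, and the farthest was St3gal2 at 0.786, against a median of 0.756 over all genes.

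**Figure D4:**
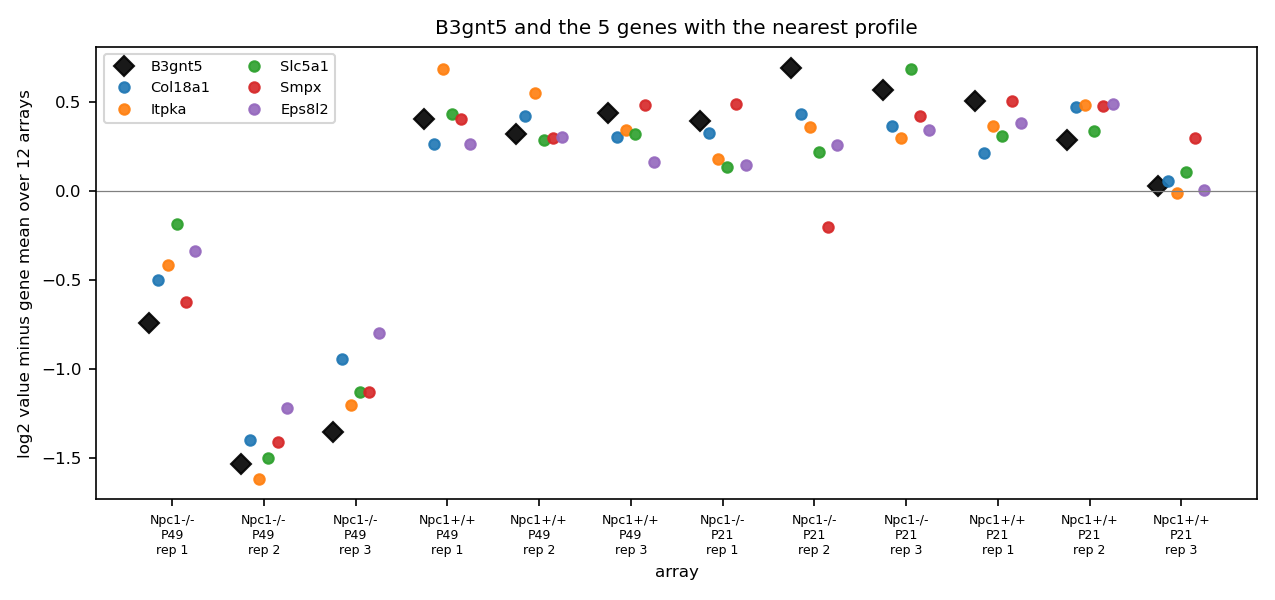
Log2 values of B3gnt5 (black diamonds) and of the 5 genes nearest to it, each minus its own mean over the 12 arrays, with arrays along the horizontal axis. All 6 genes are lowest on the 3 Npc1-/- P49 arrays, and there replicate 1 is the highest of the 3 for each gene. The 5 were picked for likeness to B3gnt5 on these same arrays, so the shared pattern follows from the choice.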

How the data were processed

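The authors deposited 1 linear intensity per probe set and array, per the labels from biotin-labelled RNA on Affymetrix arrays. How the probes were summarised is not given in the sources used here. Each array had a 2% trimmed mean of 5002. No detection calls were used, and the 3 arrays in a group limit the precision.

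Intensities were taken as log2(value + 16) and quantile normalised (limma 3.58.1, R 4.3.3). Fold changes on this scale understate those of dim genes. Probe sets were named by the platform annotation, updated by Entrez identifier (20351 of 20380 with 1 symbol matched). Another 691 had several symbols and were not used, and 1555 had none. Each gene took its brightest probe set and was tested if its mean reached the 40th percentile, intensity 959. limma (eBayes with trend) was fitted to 4 group means over all 12 arrays, with Benjamini-Hochberg adjustment over 7835 genes and a threshold of 0.05. The procedure was tested on simulated data.

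Named were the 10 genes with all their probe sets, Npc1, called genes of the pathway lists and the 5 profiles nearest to B3gnt5. The uncalled lacto and neolacto genes were named after their values were seen. The genes and lists were chosen with earlier results of these data known. Alternatives were the scaling, pseudocount, filter, probe sets, arrays in the fit, single arrays left out, the 3 arrays of another Xist level left out and a replicate block. The deviations of same-numbered animals of different groups had correlations from -0.18 to 0.19 (18 correlations, 6 of them over 0.1). They were 0.19, 0.11 and 0.08 between the genotypes at P49, and 0.16, 0.09 and 0.12 between the ages in Npc1+/+. Between the genotypes at P21 they were -0.13, 0.12 and -0.18. Animals of different numbers were not compared, so a weak pairing cannot be told from none.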

Additional observations from a re-analysis of the deposited data

Results flagged for a closer look

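On the brighter probe set of B3gnt5, all 3 Npc1-/- animals were below the Npc1+/+ mean at P49 and all 3 were above it at P21. The P49 minus P21 difference of genotype effects was -1.87. The P21 difference itself did not pass (0.28, limma adjusted p = 0.592), its arrays overlapped, and the dimmer probe set was lower in Npc1-/- at both ages (-0.87 at P49 and -0.26 at P21). The difference between ages was not tested, because B3gnt5 was chosen for its P49 level.

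Hexa had a genotype effect at P49 that exceeded that at P21 by 1.18 (limma adjusted p = 0.0147), with all 3 Npc1-/- animals above all 3 Npc1+/+ animals at P49.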

How the results depend on the processing

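Of 619 alternative values for 30 results on the 6 other tested genes, 589 kept direction and side of the threshold. B3gnt5 at P49 was -1.84 to -1.44 with 1 array left out and -1.24 with the average of its probe sets. At P21 it ran from 0.01 to 0.39 (limma adjusted p 0.344 to 0.989). The count of other genes called stayed at 0 for genotype at P49, genotype at P21 and the interaction in every alternative. With age in Npc1-/- it was 1 (St3gal5) with probe sets tested singly, an alternative chosen after seeing the data. With age in Npc1+/+ it was 1 (B4galnt1) without the 3 P21 arrays of another Xist level, and 0 to 1 with single arrays left out. The replicate block gave 0 calls in all 5 comparisons.

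Signs turned in 28 of the values, and 2 passed the threshold (B4galnt1). Without those 3 arrays, the P21 differences of St3gal5 and St8sia5 were -0.045 and -0.044, and Ugcg at P49 was 0.081. Each alternative that left arrays out picked the brightest probe set anew. The Ugcg values without those 3 arrays may therefore be those of its probe set 1421269_at, which gave 0.082 at P49 over all arrays. In the same setting the interactions of Ugcg, St3gal5 and St3gal2 were 0.073, 0.160 and 0.144, the age differences in Npc1-/- of Ugcg, B4galnt1 and St8sia5 were 0.161, 0.060 and 0.107, and that of Ugcg in Npc1+/+ was 0.088. With averaged probe sets, St3gal5 at P49 was -0.0090, St3gal2 with age in Npc1-/- -0.012 and Ugcg with age in Npc1+/+ 0.106. With single arrays left out, P49 differences ran from -0.18 to 0.023 (Ugcg), -0.090 to 0.0041 (B4galt6) and -0.22 to 0.041 (St8sia5), and interactions from -0.10 to 0.087 (St3gal5) and -0.18 to 0.089 (St3gal2). Age differences ran from -0.17 to 0.055 (B4galnt1), -0.22 to 0.042 (St8sia5) and -0.065 to 0.20 (St3gal2) in Npc1-/-, and from -0.0075 to 0.23 (B3gnt5) and -0.19 to 0.10 (Ugcg) in Npc1+/+. The cause was not tested. Detection calls were not used, so the differences of B4galt5, St8sia1 and B3galt4, below the filter, are the least certain.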
